A study of Mus musculus with 29 samples.

Results

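The genes described here code for the proteins that join one atrial muscle cell to the next. They are 3 connexins (Gja1, Gja5 and Gjc1), the adherens junction genes Cdh2 and Ctnna3, and the desmosome genes Dsp, Dsg2, Dsc2, Pkp2 and Jup. They were taken by name as a fixed list, with earlier results of these data known, and are 10 of the 55292 gene names counted in each library. All 10 had enough counts to be tested in every comparison. The 29 libraries hold poly-A RNA of atria taken from male mice. The first experiment held NaV1.5 transgenic atria on regular diet (RD, 4 libraries), NaV1.5 atria on high-fat diet (HFD, 5 libraries), Ctrl atria on RD (4 libraries) and Ctrl atria on HFD (4 libraries). The second experiment held NaV1.5 atria on HFD with nicotinamide riboside, a precursor of NAD (NR, 7 libraries), and NaV1.5 atria on HFD with vehicle (5 libraries). Diets began at 5 weeks of age, and the high-fat diet lasted 4 weeks. Every NR and vehicle mouse thus carried the transgene and ate HFD, and the second experiment had no Ctrl or RD library. The promoter that drives the transgene and the cells that hold it are not given in the sources used here, nor is what the Ctrl mice carry, and the level of the transgene was not analysed here.

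Heart muscle cells meet end to end at the intercalated disc. Gap junction channels there, each built from connexin proteins of both cells, carry current and small molecules from cell to cell. Adherens junctions tie the actin of the contractile apparatus to the membrane through cadherin and catenins, and desmosomes tie the intermediate filaments through desmosomal cadherins, plakoglobin, plakophilin and desmoplakin. Atrial muscle is known for making both connexin 43 (Gja1) and connexin 40 (Gja5), whereas ventricular working muscle relies mostly on connexin 43. Inherited defects of desmosome genes are known to cause arrhythmogenic cardiomyopathy in humans.

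The promoters of 4 of the genes are shown because the comparisons below turn on them. Gja5 had the lowest fitted difference between NaV1.5 and Ctrl, Ctnna3 was the one member past the threshold in edgeR's test, and Gja1 and Jup stood on opposite sides of 0 between diets. Each window runs 5′ to 3′ on the gene's strand from 250 bases before to 50 bases after a RefSeq start site of build GRCm38.p6. Capitals mark matches to 7 short motifs, searched on both strands.
Gja1, chr10:56377050-56377349, plus strand: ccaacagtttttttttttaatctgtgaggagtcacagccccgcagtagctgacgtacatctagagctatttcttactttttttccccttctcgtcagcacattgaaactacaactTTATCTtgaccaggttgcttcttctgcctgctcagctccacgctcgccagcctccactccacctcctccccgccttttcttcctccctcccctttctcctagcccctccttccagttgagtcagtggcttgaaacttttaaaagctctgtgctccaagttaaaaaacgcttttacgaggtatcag
Gja5, chr3:97032152-97032451, plus strand: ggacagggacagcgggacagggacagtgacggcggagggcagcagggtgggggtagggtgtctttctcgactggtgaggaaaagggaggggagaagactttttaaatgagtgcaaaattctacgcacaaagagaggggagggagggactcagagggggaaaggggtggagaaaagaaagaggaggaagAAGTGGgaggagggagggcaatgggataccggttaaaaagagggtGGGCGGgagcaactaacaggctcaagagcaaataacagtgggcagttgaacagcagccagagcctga
Jup, chr11:100397741-100398040, minus strand: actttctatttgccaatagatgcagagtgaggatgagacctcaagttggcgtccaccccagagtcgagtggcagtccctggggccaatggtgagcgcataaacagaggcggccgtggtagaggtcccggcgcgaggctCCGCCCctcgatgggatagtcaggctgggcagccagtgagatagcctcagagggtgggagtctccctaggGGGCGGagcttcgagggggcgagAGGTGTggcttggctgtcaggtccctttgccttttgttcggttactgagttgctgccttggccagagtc
Ctnna3 at the first of its 3 RefSeq start sites, chr10:63429848-63430147, plus strand: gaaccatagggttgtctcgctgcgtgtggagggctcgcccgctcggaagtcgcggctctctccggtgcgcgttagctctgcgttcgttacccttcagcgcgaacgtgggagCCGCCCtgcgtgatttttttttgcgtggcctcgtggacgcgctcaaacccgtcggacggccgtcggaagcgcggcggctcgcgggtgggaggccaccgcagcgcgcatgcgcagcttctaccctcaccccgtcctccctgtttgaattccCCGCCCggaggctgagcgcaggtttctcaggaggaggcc
The motifs were AGATAA for GATA factors, AGGTGT for T-box factors, AAGTGG for Nkx2-5, GGGCGG for Sp1, CATTCC for TEAD factors, CAGGTG for Snai1 and TTTATA as a core of MEF2 sites. The T-box and Snai1 motifs can overlap by 5 bases. Among all 32851 RefSeq promoters of the same length the shares with a match, in the order given, were 11.2%, 13.7%, 16.9%, 35.7%, 14.7%, 20.2% and 13.6%. Gja1 held 1 match, a GATA motif on the opposite strand with its first base at -135 from the start. Gja5 held an Nkx2-5 motif at -62 and an Sp1 motif at -17. Jup held Sp1 motifs at -112 (opposite strand) and -42 and a T-box motif at -19. The Ctnna3 window held 2 Sp1 motifs on the opposite strand, at -139 and 12. A match describes letters only and was not tested for binding. The GC content of these windows was 47.7% for Gja1, 55.7% for Gja5, 60.7% for Jup and 67.0% for Ctnna3.

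The genes lie on 6 chromosomes of GRCm38. Gja1 spans chr10:56377330-56402513 and Ctnna3 spans chr10:63430098-65003667, both on the plus strand. Gjc1 (chr11:102799579-102819700) and Jup (chr11:100368958-100397763) are on the minus strand. Gja5 spans chr3:96904693-97077416, Dsp chr13:38151294-38198577 and Pkp2 chr16:16213318-16272712, all on the plus strand. Cdh2 (chr18:16588877-16809246, minus strand), Dsc2 (chr18:20030633-20059554, minus strand) and Dsg2 (chr18:20558074-20604521, plus strand) share chromosome 18. The summed exons measured 10257 bases in Gja1, 5746 in Gja5, 5003 in Gjc1 and 7227 in Ctnna3. Because counting did not use strand, reads cannot be assigned with certainty where exons overlap a gene on the other strand. That holds for 165 bases of Gja5 (Gpr89), 499 bases of Dsp (Gm10129) and 330 bases of Dsg2 (Gm16090).

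Total counts ran from 13189995 to 33061018 per library. All diet libraries carry the batch label 1 except Ctrl_HFD replicate 4, labelled batch 2. With batch as a term of the fit that library carries no weight in any contrast, though its values are shown. All vehicle libraries carry batch 3, NR replicates 1 to 5 batch 2 and NR replicates 6 and 7 batch 3. Whether each library stands for its own mouse is not stated, so the p-values cover only the spread among these libraries, which may be technical. The 7 atrial cardiomyocyte markers were all detected, with a summed level of 20000 to 57500 CPM (counts scaled by library total and TMM factor).

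Per length of exon (RPKM, the CPM value per kilobase of exon), Dsp had the highest mean of the 10 genes in every group. Desmoplakin, its product, links the desmosome to intermediate filaments. In Ctrl_RD atria Dsp averaged 35.7 ± 6.43 RPKM (SD, n = 4), followed by Jup at 25.9 ± 4.15, Gja1 at 25.8 ± 1.66, Gja5 at 25.8 ± 3.21, Dsc2 at 19.6 ± 1.7 and Dsg2 at 18.7 ± 0.22 RPKM. The ranges over libraries of each neighbouring pair among these 6 overlapped. Below them, without overlap between neighbours, came Pkp2 at 12.6 ± 0.908, Cdh2 at 5.86 ± 0.913, Gjc1 at 3.73 ± 0.515 and Ctnna3 at 1.79 ± 0.116 RPKM. The order of these last 4 was the same in NaV1.5_RD, NaV1.5_HFD and Ctrl_HFD atria. In NaV1.5_RD atria Gja5 stood lower in the order, at 17.8 ± 3.26 RPKM, below Gja1 at 22.5 ± 0.656 and Dsc2 at 19.2 ± 1.09 RPKM (SD, n = 4).

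**Figure D1:**
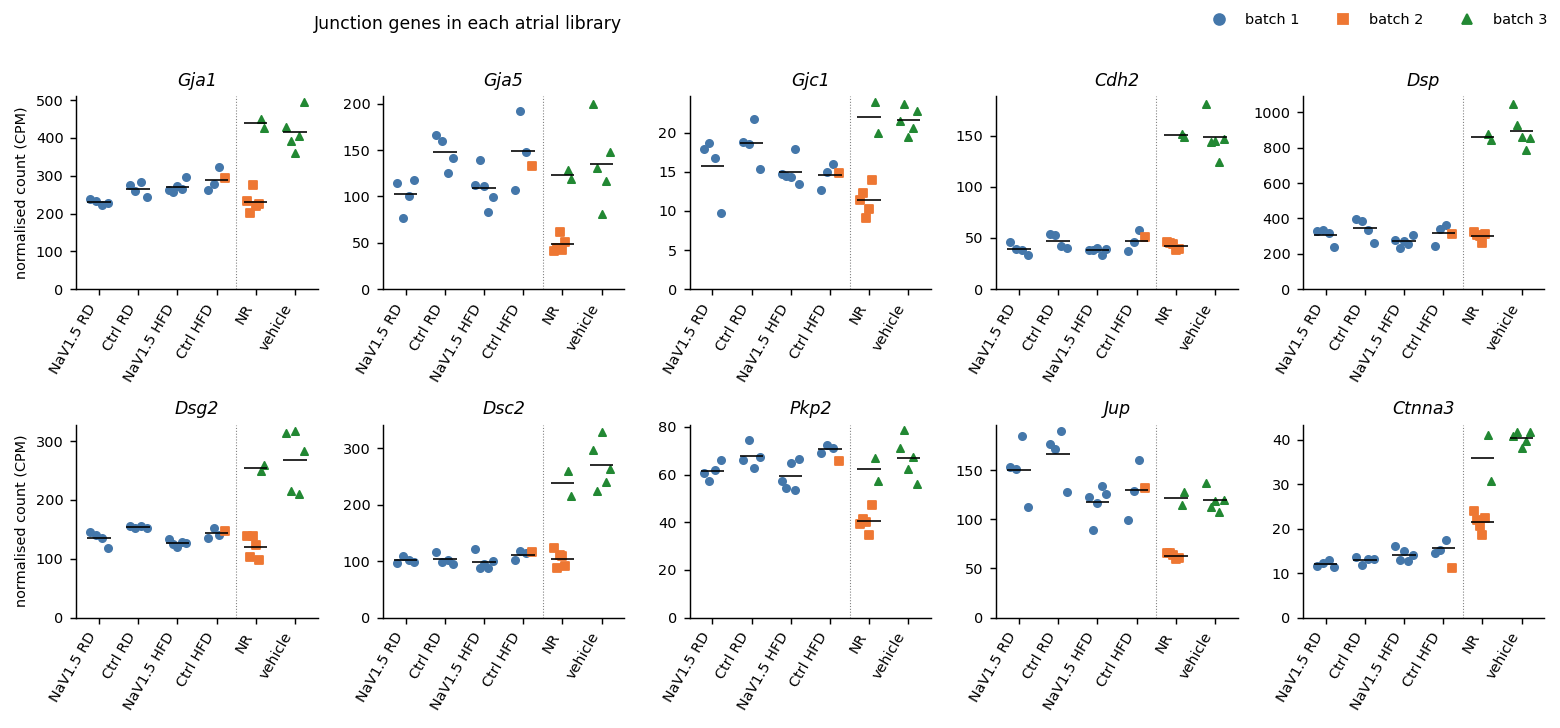
Normalised counts (CPM, y axes from 0) of the 10 junction genes in each of 29 atrial libraries, by group along the x axis, with colour and marker shape for the batch label and a black line for the mean of the libraries of the group's main batch (both batches in NR). Dsg2 in NaV1.5 atria lay below Ctrl atria on RD without overlap, and the share of all genes that separate so is not given. All 10 genes were higher in the 2 NR libraries of batch 3 than in the 5 of batch 2, and the share of all genes that were so is not given.

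The first question was how NaV1.5 atria differed from Ctrl atria on each diet. By edgeR's quasi-likelihood test with Benjamini-Hochberg adjustment, 0 of the 10 junction genes were called on RD, where 0.0124% of all genes tested were called. On HFD 0 of 10 were called against 0.0866% of all genes, and averaged over the diets 0 of 10 against 0.452%. The fitted log2 differences lay mostly on one side of 0, with all 10 below 0 on RD, 9 of 10 on HFD and all 10 when averaged over the diets. The median of the 10 was -0.19 on RD, -0.18 on HFD and -0.16 averaged, while the median of all 16168 genes tested was 0.01 in each case, and 48.6%, 48.8% and 48.5% of them lay below 0. Without NaV1.5_RD replicate 4 the median on RD was -0.11, with all 10 still below 0, and with the replicate block, which drops the 2 libraries whose titles have no number, it was -0.11, with 9 below 0. The genes with the smallest p were Gja5, Dsg2, Pkp2 and Cdh2.

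Gja5, the connexin 40 gene, had the lowest fitted difference. It stood at 114, 76.6, 101 and 118 CPM in NaV1.5_RD atria, against 166, 160, 125 and 141 CPM in Ctrl_RD atria. All 4 transgenic libraries lay below all 4 controls. For this gene and those below, the share of all genes whose groups separate in this way is not given. On HFD it stood at 112, 139, 111, 82.7 and 99.0 CPM in NaV1.5 atria, against 107, 192, 148 and 133 CPM in Ctrl atria. Here the groups overlapped, since Ctrl_HFD replicates 1 and 4 lay within the transgenic range. The fitted log2 difference was -0.53 on RD (SE 0.18, unadjusted p = 0.00822, adjusted p = 0.636, edgeR quasi-likelihood test with Benjamini-Hochberg adjustment). On HFD it was -0.45 (SE 0.18, unadjusted p = 0.0222, adjusted p = 0.518 in edgeR), and with 1 library left out at a time it ran from -0.64 to -0.23, the last without Ctrl_HFD replicate 2. Averaged over the diets it was -0.49, a fold of 0.711 (SE 0.13, unadjusted p = 0.00116), and missed the threshold at an adjusted p of 0.1002 in edgeR. Without Ctrl_HFD replicate 1 the averaged difference was -0.59 and passed, at an adjusted p of 0.0337 in edgeR. In batch 1 libraries alone it was -0.50, at an adjusted p of 0.0988 in edgeR.

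Gja1 codes for connexin 43, the most widely made connexin of the heart. On RD it stood at 239, 232, 223 and 228 CPM in NaV1.5 atria, against 275, 260, 282 and 244 CPM in Ctrl atria, again without overlap. On HFD the values were 263, 257, 274, 265 and 297 CPM in NaV1.5 atria, against 261, 278, 323 and 293 CPM in Ctrl atria. These groups overlapped. The log2 difference on RD was -0.20 (SE 0.09, unadjusted p = 0.027, adjusted p = 0.798, edgeR), and averaged over the diets it was -0.14 (SE 0.06, unadjusted p = 0.0289, adjusted p = 0.361, edgeR). Gjc1, the connexin 45 gene known for its part in the conduction system, was the one member above 0 on HFD. It ranged from 9.68 to 18.7 CPM over the 9 NaV1.5 libraries, against 12.7 to 21.7 CPM over the 8 Ctrl libraries, with no unadjusted p below 0.05.

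The connexin transcripts can also be set against each other within a library. Gja5 over Gja1 per length averaged 0.794 ± 0.145 in NaV1.5_RD atria (SD, n = 4), against 1.00 ± 0.141 in Ctrl_RD atria (SD, n = 4). On HFD the ratio averaged 0.720 ± 0.161 in NaV1.5 atria (SD, n = 5), against 0.898 ± 0.226 in Ctrl atria (SD, n = 4). On both diets the ranges overlapped, from 0.590 to 0.927 in NaV1.5_RD atria, against 0.793 to 1.10 in Ctrl_RD atria. As a share of the 3 connexins per length, Gja5 held 40.8 ± 5.22% in NaV1.5_RD atria, against 46.5 ± 3.92% in Ctrl_RD atria (SD, n = 4 each). Gjc1 held 4.33 to 9.41% in NaV1.5_RD atria, against 6.00 to 8.10% in Ctrl_RD atria. These shares are descriptions and were given no test.

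**Figure D2:**
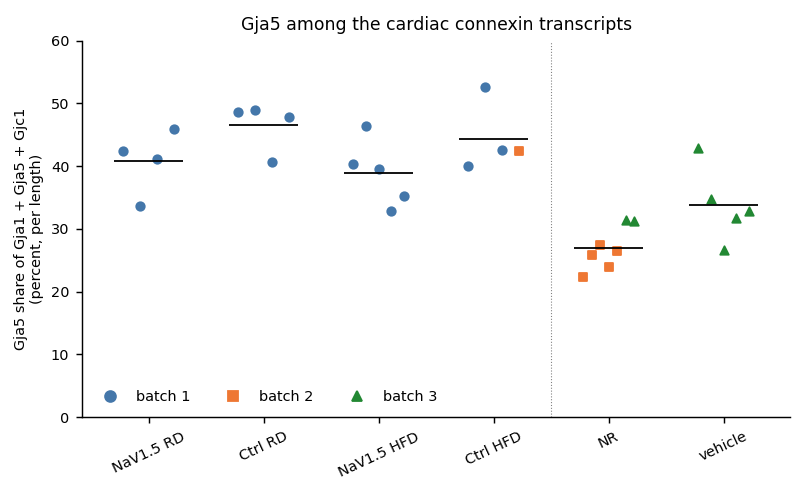
Share of Gja5 (percent, y axis) among Gja1, Gja5 and Gjc1 transcripts per exon length in each library, by group along the x axis, with marker and colour for the batch label and a line at the mean of each group. The share averaged 40.8% in NaV1.5_RD and 46.5% in Ctrl_RD atria, 38.9% in NaV1.5_HFD and 44.4% in Ctrl_HFD atria, and 26.9% in NR and 33.8% in vehicle atria. The NR mean pools 5 libraries of batch 2 with 2 of batch 3 (31.4% and 31.2%), while all vehicle libraries carry batch 3.

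Of the adherens junction genes, Cdh2 codes for N-cadherin, which spans the gap between the cells. On RD it stood at 45.9, 39.4, 38.4 and 33.3 CPM in NaV1.5 atria, against 54.0, 53.2, 42.1 and 39.8 CPM in Ctrl atria. On HFD it stood at 38.7, 38.0, 39.9, 33.5 and 39.5 CPM in NaV1.5 atria, against 37.5, 46.1, 58.0 and 51.4 CPM in Ctrl atria. On each diet the groups overlapped through 1 or 2 Ctrl libraries at the low end. The log2 difference was -0.31 on HFD (SE 0.13, unadjusted p = 0.0279, adjusted p = 0.541, edgeR), and with 1 library left out at a time it ran from -0.45 to -0.15, the last without Ctrl_HFD replicate 3. It was -0.29 averaged (SE 0.09, unadjusted p = 0.0053, adjusted p = 0.193, edgeR). Ctnna3 codes for alpha-T-catenin, which binds both the cadherin complex and plakophilin 2. It ranged from 11.3 to 16.1 CPM over the 9 NaV1.5 libraries, against 11.1 to 17.4 CPM over the 8 Ctrl libraries, with no unadjusted p below 0.05 between genotypes.

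Among the desmosome genes, Dsg2 (desmoglein 2, a desmosomal cadherin) lay below the controls throughout. On RD it stood at 146, 140, 135 and 119 CPM in NaV1.5 atria, against 156, 153, 156 and 153 CPM in Ctrl atria. On HFD it stood at 133, 125, 120, 128 and 126 CPM in NaV1.5 atria, against 136, 153, 140 and 147 CPM in Ctrl atria. On both diets every transgenic library lay below every control, and the share of all genes that separate so is not given. The log2 difference was -0.19 on RD (SE 0.08, unadjusted p = 0.0195, adjusted p = 0.771) and -0.18 on HFD (SE 0.08, unadjusted p = 0.0339, adjusted p = 0.573), both in edgeR. Averaged, it was -0.19, a fold of 0.879 (SE 0.05, unadjusted p = 0.00286, adjusted p = 0.147, edgeR).

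Pkp2 codes for plakophilin 2, which anchors desmoplakin to the membrane. On HFD it stood at 57.5, 54.5, 65.0, 53.6 and 66.5 CPM in NaV1.5 atria, against 68.9, 72.2, 71.1 and 65.8 CPM in Ctrl atria. The batch 1 groups did not overlap, and the batch 2 control lay within the transgenic range. On RD the values were 60.5, 57.4, 62.1 and 66.3 CPM in NaV1.5 atria, against 66.0, 74.4, 62.9 and 67.4 CPM in Ctrl atria, which overlapped. The log2 difference was -0.25 on HFD (SE 0.09, unadjusted p = 0.00812, adjusted p = 0.402, edgeR) and -0.19 averaged (SE 0.06, unadjusted p = 0.00416, adjusted p = 0.174, edgeR).

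Dsp, Dsc2 and Jup had no unadjusted p below 0.05 between genotypes. Dsp had a lowest, median and highest value of 235, 279 and 334 CPM over the 9 NaV1.5 libraries, against 246, 338.5 and 397 CPM over the 8 Ctrl libraries. Dsc2, a second desmosomal cadherin, had 88.2, 97.8 and 121 CPM in NaV1.5 atria, against 95.6, 108.5 and 118 CPM in Ctrl atria. Jup, the plakoglobin gene, had 89.0, 126 and 185 CPM in NaV1.5 atria, against 99.8, 146.5 and 190 CPM in Ctrl atria. All of these ranges overlapped broadly.

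**Figure D3:**
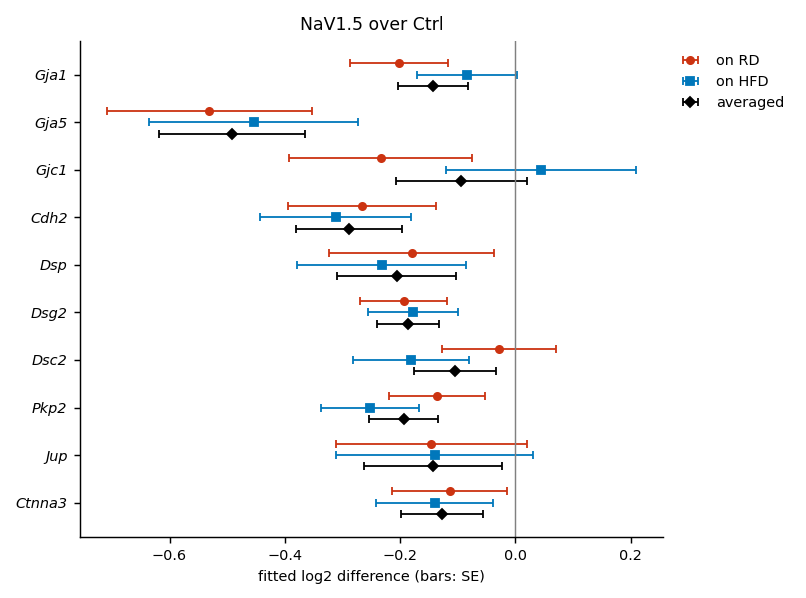
Fitted log2 difference of NaV1.5 over Ctrl (x axis, bars are the SE) for each junction gene (y axis), on RD, on HFD and averaged over the diets. All points but Gjc1 on HFD lie below 0, with Gja5 lowest at -0.53 on RD, and none passed the adjusted threshold in edgeR.

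In edgeR an unadjusted p below 0.05 was reached by 3 of the 10 on RD, 4 on HFD and 5 averaged, while 6.11%, 8.05% and 11.4% of all genes reached it. DESeq2 and limma-voom also called 0 of the 10 on each diet, where they called 0.167% and 0.0804% of all genes on RD and 0.557% and 0.779% on HFD. Averaged over the diets DESeq2 called 2, Gja5 and Dsg2, against 1.73% of all genes, and limma-voom called 3, Gja5, Dsg2 and Pkp2, against 3.14%. Over 28 settings of the averaged comparison 9 or 10 of the 10 genes lay below 0.

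Other measures moved with genotype too. Over all genes the log2 difference on RD went with exon length at a rho of -0.243, a description across genes, which are not independent. The 10 genes had a median exon length of 6831.5 bases against 4034 over all genes tested. With offsets for length and GC content in the fit, the median of the 10 was -0.15 on RD, -0.18 on HFD and -0.15 averaged, with 10, 9 and 10 of them below 0. The summed level of the 7 atrial cardiomyocyte markers was 46500 to 57500 CPM in NaV1.5_RD atria, against 47200 to 53500 CPM in Ctrl_RD atria. On HFD it was 41000 to 45300 CPM in NaV1.5 atria, against 44200 to 49400 CPM in Ctrl atria. Gja5 is also made by arterial endothelium, whose 8 markers summed to 117 to 129 CPM in NaV1.5_RD atria, against 102 to 129 CPM in Ctrl_RD atria. On HFD these were 109 to 150 CPM in NaV1.5 atria, against 103 to 126 CPM in Ctrl atria, and no defining marker of either list was at 0 in any group. Averaged over the diets, 2 of 7 atrial cardiomyocyte markers lay above 0 (median -0.04, 0 called, 0 at an unadjusted p below 0.05, edgeR). In the same comparison 8 of 10 fibroblast markers and 8 of 10 endothelial markers lay above 0, with medians of 0.17 and 0.14. In either list 0 were called (2 and 4 at an unadjusted p below 0.05, edgeR). Of the macrophage markers 9 of 10 lay above 0 (median 0.17, 0 called, 4 at an unadjusted p below 0.05), and of the lymphocyte markers 9 of 9 (median 0.32, 0 called). All 6 tested markers of red cell precursors lay above 0, with a median of 1.01, 0 called and 4 at an unadjusted p below 0.05 in edgeR. They summed to 863 to 2910 CPM in NaV1.5_HFD atria, against 571 to 794 CPM in Ctrl_HFD atria, and to 416 to 2640 CPM in NaV1.5_RD atria, against 424 to 1610 CPM in Ctrl_RD atria. Of 7 tested conduction system markers edgeR called 1 higher averaged over the diets, against 0.452% of all genes, and 1 on HFD, against 0.0866%. An unadjusted p below 0.05 was reached by 3 of the 7 in each. When averaged, 3 lay above 0 (median -0.05), and on HFD 2 did (median -0.37). The 8 listed markers summed to 40.7 to 73.9 CPM in NaV1.5_HFD atria, against 37.8 to 112 CPM in Ctrl_HFD atria. The part of these cell types in the result was not tested, and in bulk atria fewer cells of a type and less RNA per cell cannot be told apart.

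The other genes of the junctions gave no call for genotype in edgeR. Averaged over the diets, 0 of 14 tested adherens junction partners were called, with 3 at an unadjusted p below 0.05. Vcl, the vinculin gene, had a log2 difference of -0.51 (SE 0.12, adjusted p = 0.0642, edgeR) and Plekha7, an adherens junction adaptor, one of -0.40 (SE 0.10, adjusted p = 0.0875, edgeR). DESeq2 and limma-voom each called 3 of these partners lower, namely Vcl, Plekha7 and Ctnna1, the gene of alpha-E-catenin. Of 6 other gap junction genes tested 0 were called and 2 had an unadjusted p below 0.05, Panx2 at -0.32 (SE 0.12) and Gja4, the connexin 37 gene of arterial endothelium, at 0.29 (SE 0.13). Limma-voom called both of these. Of 8 other desmosome genes 0 were called by any of the 3 tools and 0 had an unadjusted p below 0.05, the smallest belonging to Pkp4 at 0.12 (SE 0.06) and Perp at -0.13 (SE 0.07). Of 20 other intercalated disc genes 0 were called and 2 had an unadjusted p below 0.05, Myzap at -0.20 (SE 0.06) and Cav3, the muscle caveolin, at 0.14 (SE 0.06). Limma-voom called 1 of them, Myzap. Of 20 kinases and traffic proteins that act on connexin 43, 0 were called by any of the 3 tools and 0 had an unadjusted p below 0.05, with Ywhaq at 0.15 (SE 0.07) and Nedd4 at -0.10 (SE 0.06) as the smallest. Of 16 transcription factors known to act on cardiac connexin genes, 0 were called in edgeR and 2 had an unadjusted p below 0.05, Hopx at -0.20 (SE 0.07) and Irx5 at 0.55 (SE 0.25). Limma-voom called 1 of these, Hopx.

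The next question was what HFD did to the junction genes. Averaged over the genotypes edgeR called 1 of the 10 genes, against 4.95% of all genes tested (350 higher and 450 lower). Ctnna3 rose on HFD and 0 fell, and 5 of the 10 lay on each side of 0. Gja1 lay above 0 and Jup below 0 in both genotypes, each with an adjusted p between the threshold and 0.1 when averaged.

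Ctnna3 stood at 16.1, 13.0, 14.9, 12.8 and 14.0 CPM in NaV1.5_HFD atria, against 11.5, 12.3, 13.0 and 11.3 CPM in NaV1.5_RD atria. In Ctrl atria it stood at 14.4, 15.2, 17.4 and 11.1 CPM on HFD, against 13.7, 11.7, 13.2 and 13.2 CPM on RD. Within batch 1, 6 of 8 HFD libraries lay above all 8 RD libraries, and the batch 2 HFD library lay below all of them. The log2 difference averaged over the genotypes was 0.25, a fold of 1.19 (SE 0.07, adjusted p = 0.0457, edgeR). It was 0.24 in NaV1.5 atria (SE 0.10, unadjusted p = 0.0214, adjusted p = 0.184, edgeR) and 0.27 in Ctrl atria (SE 0.11, unadjusted p = 0.0209, adjusted p = 0.532, edgeR). The call rested on a narrow margin. It was kept in 3 of the 16 fits that leave out 1 batch 1 library and lost in the other 13, with adjusted p-values from 0.0268 to 0.0968 and differences from 0.22 to 0.28. With offsets for GC content and length the difference was 0.22, at an adjusted p of 0.12 in edgeR. In batch 1 libraries alone it was 0.26, at an adjusted p of 0.0436, and in Ctrl atria it was 0.16 without the batch term.

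Gja1 stood at 263, 257, 274, 265 and 297 CPM in NaV1.5_HFD atria, against 239, 232, 223 and 228 CPM in NaV1.5_RD atria. Every HFD library of the transgenic mice lay above every RD library, and the share of all genes that separate so is not given. In Ctrl atria it stood at 261, 278, 323 and 293 CPM on HFD, against 275, 260, 282 and 244 CPM on RD, with overlap. The log2 difference was 0.24 in NaV1.5 atria (SE 0.08, unadjusted p = 0.00841, adjusted p = 0.124, edgeR) and 0.18 averaged (SE 0.06, unadjusted p = 0.00879, adjusted p = 0.0887, edgeR). In NaV1.5 atria, DESeq2 called Gja1 at an adjusted p of 0.0234 and limma-voom called it at 0.0356. With offsets for GC content and length the difference was 0.10 in NaV1.5 atria (unadjusted p = 0.216, edgeR) and 0.058 averaged (unadjusted p = 0.343, edgeR).

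Jup, whose protein plakoglobin sits in both desmosomes and adherens junctions, lay on the other side. It stood at 123, 89.0, 117, 134 and 126 CPM in NaV1.5_HFD atria, against 153, 151, 185 and 113 CPM in NaV1.5_RD atria. In Ctrl atria it stood at 99.8, 129, 161 and 132 CPM on HFD, against 177, 172, 190 and 128 CPM on RD. The groups overlapped in both genotypes, through the low RD libraries NaV1.5_RD replicate 4 and Ctrl_RD replicate 4. The log2 difference was -0.35 in NaV1.5 atria (SE 0.16, unadjusted p = 0.0367, adjusted p = 0.232, edgeR) and -0.36 averaged, a fold of 0.781 (SE 0.12, unadjusted p = 0.0079, adjusted p = 0.0836, edgeR). It passed in edgeR without NaV1.5_RD replicate 4 (adjusted p = 0.0253), without Ctrl_RD replicate 4 (adjusted p = 0.0397) and without Ctrl_HFD replicate 3 (adjusted p = 0.0429). With offsets for GC content and length the difference was -0.19 in NaV1.5 atria (unadjusted p = 0.0899, edgeR) and -0.20 averaged (unadjusted p = 0.0194, adjusted p = 0.209, edgeR). In NaV1.5 atria it was -0.23 without NaV1.5_RD replicate 3.

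The other 7 genes had averaged log2 differences from -0.22 (Gjc1) to 0.05 (Gja5), with no unadjusted p below 0.05 in either genotype or averaged in edgeR. Limma-voom called Gjc1 lower when averaged, at -0.28 (adjusted p = 0.02). Gjc1 had a lowest, median and highest value of 12.7, 14.7 and 17.9 CPM over the 9 HFD libraries, against 9.68, 18.25 and 21.7 CPM over the 8 RD libraries. Dsp had 235, 279 and 361 CPM on HFD, against 237, 330.5 and 397 CPM on RD. Gja5 averaged 125 ± 32.5 CPM on HFD (SD, n = 9), against 125 ± 29.9 CPM on RD (SD, n = 8).

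**Figure D4:**
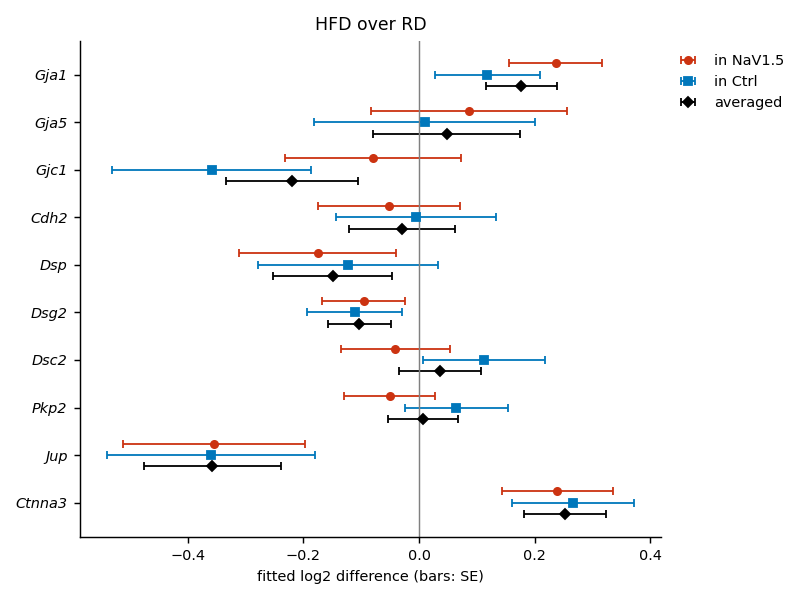
Fitted log2 difference of HFD over RD (x axis, bars are the SE) for each junction gene (y axis), in NaV1.5 atria, in Ctrl atria and averaged over the genotypes. Ctnna3 at 0.25 averaged passed the adjusted threshold, and Gja1 and Jup lie on opposite sides of 0.

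In NaV1.5 atria edgeR called 0 of 10 against 1.13%, with 3 at an unadjusted p below 0.05 (18.9% of all genes), while DESeq2 called 1, against 5.25% of all genes, and limma-voom 2, against 12.2%. Averaged over the genotypes DESeq2 called 3 of the 10, against 10% of all genes, and limma-voom 4, against 24.3%. In Ctrl atria edgeR called 0 of 10 against 0% of all genes, with 1 at an unadjusted p below 0.05 (8.48% of all genes), and DESeq2 and limma-voom also called 0, against 0.118% and 0.427% of all genes. Whether HFD acted differently in the 2 genotypes was tested as an interaction. By edgeR 0 of 10 genes and 0% of all genes passed, with 0 of the 10 at an unadjusted p below 0.05 (2.26% of all genes), and 0 by DESeq2 and by limma-voom. The interaction ran from -0.15 (Dsc2, SE 0.14) to 0.28 (Gjc1, SE 0.23).

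The diet differences of all genes went with GC content, at a rho of -0.492 averaged over the genotypes. Of the members, Jup had the highest GC content of its exons at 58.8%, Ctnna3 had 46.6% and Gja1 42.2%. With offsets for GC content and length 0 of the 10 were called and the median was -0.045, against -0.011 without them. Adipocyte markers lay lower on HFD (6 of 7 tested below 0, median -1.99, 2 called lower, Plin1 and Retn), and their summed level was 17.3 to 28.3 CPM in NaV1.5_HFD atria, against 15.3 to 56.9 CPM in NaV1.5_RD atria. In Ctrl atria its median was 18.3 CPM on HFD, against 32.0 CPM on RD, with Ucp1 at 0 in all Ctrl_RD libraries. All 10 markers of epicardium and mesothelium, cells that also make desmosomes, lay above 0 (median 0.33, 0 called, 4 at an unadjusted p below 0.05, edgeR), with sums of 322 to 836 CPM over the 4 groups. Of 7 atrial cardiomyocyte markers 2 fell, Nppa at -0.36 (SE 0.07, adjusted p = 0.00999, edgeR) and Dkk3 at -0.33 (SE 0.08, adjusted p = 0.0299, edgeR). Of 10 endothelial markers 1 fell, Vwf at -0.60 (SE 0.13, adjusted p = 0.0201, edgeR), and of 10 macrophage markers 1 rose, Mrc1 at 0.27 (SE 0.08, adjusted p = 0.0454, edgeR). Mitochondrial genes held 20.4 to 25.3% of the counts in NaV1.5_HFD atria, against 18.8 to 20.6% in NaV1.5_RD atria, and 20.4 to 26.6% in Ctrl_HFD atria, against 18.7 to 21.9% in Ctrl_RD atria. Their part in the diet differences of the junction genes was not tested.

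The further lists are read against the 4.95% of all genes called in edgeR when averaged over the genotypes, and the 23.5% with an unadjusted p below 0.05. Of 20 other genes of the intercalated disc tested, 3 rose and 0 fell. Xirp2, a repeat protein that binds actin at the disc, rose by a log2 difference of 0.51 (SE 0.07, adjusted p = 0.00145, edgeR), and it also rose in NaV1.5 atria alone, by 0.54 (SE 0.09, adjusted p = 0.0112, edgeR). Fhl2, a LIM domain protein, rose by 0.53 (SE 0.10, adjusted p = 0.0108, edgeR). Tmem65, a membrane protein of the disc, rose by 0.29 (SE 0.07, adjusted p = 0.0198, edgeR). Of 14 adherens junction partners 1 fell and 0 rose. It was Zyx, the zyxin gene, at -0.33 (SE 0.08, adjusted p = 0.023, edgeR). Of 20 kinases and traffic proteins acting on connexin 43, 1 rose and 0 fell, Cav1 at 0.30 (SE 0.08, adjusted p = 0.045, edgeR). Of 16 transcription factors 0 rose and 1 fell, Tbx5 at -0.50 (SE 0.11, adjusted p = 0.0206, edgeR), a T-box factor known to drive Gja5 in the mouse heart. Of 6 other gap junction genes and 8 other desmosome genes 0 were called by edgeR, with 2 and 3 at an unadjusted p below 0.05. DESeq2 called 1 in each of these lists, Panx2 and Des, the desmin gene, and limma-voom called 2 and 3, in fits that called 10% and 24.3% of all genes. In edgeR, Panx2 stood at -0.40 (SE 0.12) and Gjb5 at 0.54 (SE 0.24), and Des at -0.28 (SE 0.09) and Perp at -0.17 (SE 0.07).

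The last question was how NR compared with vehicle in NaV1.5 mice on HFD. By edgeR 0 of the 10 junction genes were called, against 0.425% of all genes. Since all vehicle libraries carry batch 3, the comparison rests on the 2 NR and 5 vehicle libraries of that batch.

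Gja1 stood at 449 and 427 CPM in the NR libraries of batch 3, against 430, 393, 359, 405 and 495 CPM in vehicle libraries. Gja5 stood at 128 and 119 CPM in NR, against 200, 131, 81.5, 117 and 148 CPM in vehicle. Both NR libraries lay within the vehicle range for each gene. Cdh2 stood at 152 and 149 CPM in NR, against 181, 144, 145, 124 and 147 CPM in vehicle. Dsp stood at 878 and 843 CPM in NR, against 1050, 928, 859, 787 and 857 CPM in vehicle. These too lay within the vehicle range. Ctnna3 stood at 41.1 and 30.8 CPM in NR, against 40.8, 41.6, 38.1, 39.6 and 41.8 CPM in vehicle, and 1 NR library lay below all vehicle libraries. Of the other 5 genes, Gjc1 averaged 21.9 CPM in NR, against 21.6 ± 1.71 CPM in vehicle, and Dsg2 averaged 254 CPM in NR, against 268 ± 51.9 CPM in vehicle (SD, n = 5). Dsc2 stood at 216 and 260 CPM in NR, against 224 to 330 CPM in vehicle. Pkp2 stood at 57.2 and 67.1 CPM in NR, against 56.0 to 78.7 CPM in vehicle, and Jup at 115 and 128 CPM in NR, against 108 to 137 CPM in vehicle. The groups overlapped for all 10 genes in batch 3. Over the 10 genes the fitted log2 difference ran from -0.19 (Dsc2, SE 0.16) to 0.07 (Gja1, SE 0.12), with a median of -0.07 against -0.01 over all 16482 genes tested. In edgeR 0 of the 10 had an unadjusted p below 0.05, which 11.1% of all genes had, and DESeq2 and limma-voom called 0, against 1.54% and 0.224% of all genes.

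The 5 NR libraries of batch 2 stood far lower than the 2 of batch 3. For Gja1, Cdh2, Dsp and Dsc2 the batch 2 mean lay within the means of the diet groups (Cdh2 37.9 to 48.2, Dsp 270 to 345 CPM). For Gja5, Pkp2 and Jup the batch 3 mean did (Gja5 102 to 148 CPM), and for Gjc1, Dsg2 and Ctnna3 neither did. The 2 experiments were normalised apart, and the cause was not tested. Cdh2 averaged 42.6 ± 3.37 CPM in the batch 2 libraries (SD, n = 5), against 150 CPM in the 2 NR libraries of batch 3, a fold of 3.54 of batch 3 over batch 2. Dsp averaged 299 ± 23.9 CPM in batch 2, against 861 CPM in batch 3, a fold of 2.88. Gja5 averaged 48.2 ± 8.53 CPM in batch 2, against 123 CPM in batch 3, a fold of 2.55. Among the members Pkp2 had the smallest such fold, 1.53, and the ranges of the 2 batches did not overlap for any of the 10. The share of all genes without such overlap is not given here, so this is no trait particular to the members. The members' median was 1.01 on the log2 scale, against -0.03 over all genes, of which 10.9% differed by more than 2-fold either way. Against the batch 2 libraries alone, all 10 would be called lower than vehicle in edgeR, as would 60.4% of all genes be called in either direction, but there the batch and NR cannot be told apart. Marker levels differed between these batches too. The 7 atrial cardiomyocyte markers summed to 20000 to 24800 CPM in the NR libraries of batch 2, against 30100 to 36800 CPM in those of batch 3 and 29400 to 38200 CPM in vehicle libraries. The 10 markers of epicardium and mesothelium summed to 1740 to 2550 CPM in batch 2, against 370 to 768 CPM in batch 3 and 376 to 526 CPM in vehicle libraries. The 8 arterial endothelial markers summed to 244 to 250 CPM in batch 2, against 160 to 167 CPM in batch 3 and 151 to 178 CPM in vehicle libraries. Their part in the junction gene levels was not tested.

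Gja5 over Gja1 per length was 0.508 and 0.497 in the NR libraries of batch 3, against 0.405 to 0.830 in vehicle libraries, all of batch 3. It ran from 0.317 to 0.404 in the NR libraries of batch 2, where batch and NR cannot be told apart. Gja1 held 61.8 and 62.8% of the 3 connexins in NR libraries of batch 3, against 51.7 to 66.0% in vehicle libraries. In NR libraries of batch 2 it held 65.3 to 70.6%. The 2 NR libraries of batch 3 had Gja5 shares within the vehicle range of 26.7 to 42.9%, and 4 of the 5 of batch 2 lay below it. In vehicle atria the order of the 10 genes per length had Dsp at 92.7 ± 10.2, Dsc2 at 51.3 ± 8.15 and Gja1 at 40.6 ± 4.95 RPKM at the top (SD, n = 5). Cdh2, at 18.4 ± 2.55 RPKM, stood above Pkp2 at 12.5 ± 1.61 RPKM, whereas in the diet experiment Cdh2 stood below Pkp2 in each group. In NR libraries Cdh2 stood above Pkp2 in batch 3 (18.7 against 11.6 RPKM) but below it in batch 2 (5.28 against 7.57 RPKM). In vehicle atria Ctnna3 at 5.59 ± 0.212 RPKM stood above Gjc1 at 4.32 ± 0.341 RPKM, also the other way round from the diet experiment. The 2 experiments were fitted apart and share no group, so these orders were not compared by a test.

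Of the other junction genes, 0 were called for NR in edgeR, DESeq2 or limma-voom. Of 9 other desmosome genes tested 1 had an unadjusted p below 0.05, Tmem43 at a log2 difference of 0.26 (SE 0.07, adjusted p = 0.152, edgeR), a membrane protein gene whose variants are known in arrhythmogenic cardiomyopathy. Of 6 other gap junction genes 1 had one, Panx1 at 0.49 (SE 0.21). Of 14 adherens junction partners 0 had one, and of 20 other intercalated disc genes 2 had one, Tmem65 at -0.33 (SE 0.14) and Ilk, the gene of an integrin-linked kinase, at 0.53 (SE 0.24). Of the kinases and traffic proteins 1 of 20 had one, Pkia at -0.27 (SE 0.09), and of the transcription factors 3 of 16, led by Hopx at -0.32 (SE 0.10) and Mef2c at -0.22 (SE 0.07).

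How the 10 genes varied together was described over the 16 batch 1 libraries, after each group's mean of log2 CPM was subtracted. Of 45 pairs 40 had a positive Pearson r, with a median of 0.344, and the same figures over gene pairs in general are not given. Cdh2 and Dsp had the highest, at r = 0.83 and Spearman's rho = 0.791 (permutation within groups, 2-sided, p = 0.00238 and 0.00581), with r = 0.786 without the 2 libraries farthest from the median of Cdh2. In the 12 libraries of the second experiment, after subtraction of the means of group and batch, r was 0.835 for the same pair. Dsp and Jup followed at r = 0.809 and rho = 0.576 (permutation p = 0.00376 and 0.037), with r = 0.678 without 2 libraries and 0.662 in the second experiment. After Benjamini-Hochberg adjustment over the 45 pairs 0 passed, with a permutation p of 0.0846 adjusted for both of these pairs. The lowest r was -0.54, between Pkp2 and Gjc1, and r between the connexins Gja5 and Gja1 was 0.02. In the second experiment these pairs had r = 0.585 and r = 0.687. After the pairs with Dsp named above, the next highest were Gjc1 with Dsg2 (r = 0.721), Gjc1 with Jup (0.712) and Dsc2 with Ctnna3 (0.703). Their r in the second experiment was -0.595, -0.119 and 0.0766.

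**Figure D5:**
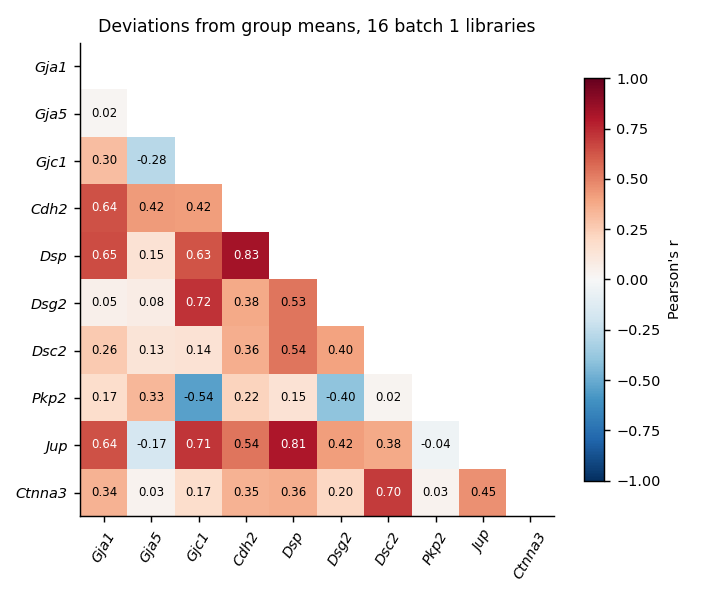
Pearson's r (colour and printed value) between pairs of junction genes over 16 batch 1 libraries, from log2 CPM with group means subtracted. Cdh2 with Dsp (0.83) and Dsp with Jup (0.81) are the highest, and Pkp2 with Gjc1 (-0.54) is the lowest.

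The tested genes whose deviations were most like those of a member were sought among 16167 genes in the same 16 libraries, as a description. For Jup they were Ap2a2 (r = 0.979), Tbc1d16 (0.961) and Dag1 (0.958). For Dsp they were Mllt6 (r = 0.967), Wipi1 (0.958) and Palld (0.95). For Cdh2 they were Atp1b1 (r = 0.91), Tex2 (0.901) and Cpt1b (0.895). For Gja1 they were Atg2b (r = 0.886) and Rgl1 (0.881), and for Gja5 Tmed7 (0.884), Gm9856 (0.881) and Zdhhc17 (0.85). For Ctnna3 they were Lrp6 (r = 0.83), Specc1l (r = 0.806) and Snhg12 (0.805). The top gene reached r = 0.846 for Dsc2 (Dnah7b), 0.878 for Pkp2 (Kpna1), 0.927 for Dsg2 (Mapk7) and 0.946 for Gjc1 (Safb). These top values come from a search over many genes. In the second experiment r with the top gene was 0.724 for Jup, 0.687 for Ctnna3, 0.658 for Pkp2 and 0.646 for Gja1. It was 0.23 for Cdh2, 0.119 for Gja5, -0.0823 for Dsc2 and -0.135 for Dsp. For Gjc1 it was -0.503 and for Dsg2 -0.526.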

How the data were processed

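Atrial RNA was sequenced from a stranded poly-A TruSeq preparation, per the labels' protocols. Each deposited file holds raw counts of pairs by gene name. Per the file headers, the authors ran featureCounts 2.0.1, ignored strand, and dropped pairs that fit several places or several genes. FastQC 0.11.7, STAR 2.7.6a and the builds GRCm38 and mm10 are named in the submitters' processing notes. The labels give groups, batches and replicate numbers, except that the titles of Ctrl_RD replicate 1 and NaV1.5_RD replicate 4 have no number.

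All kept genes entered a 2-sided quasi-likelihood F-test in edgeR 4.0.16 (filterByExpr, TMM, robust) under R 4.3.3, with group and batch as terms. The 17 diet libraries and the 12 NR and vehicle libraries were fitted apart. Adjustment was Benjamini-Hochberg over all genes tested, at 0.05. The SE of a log2 difference is its size divided by the square root of F. RPKM used the deposited exon lengths, and log2 CPM a prior count of 2. GC content, promoters and overlaps came from GENCODE M21 and RefSeq tables of GRCm38, and promoters matched 5 of the 7 members searched. The scripts were tested on simulated data. The closest pair of libraries in a group differed by a chi-square of 6.9 per gene, so none was taken as deposited in duplicate. No sequence of proteins was used here. Python 3.11.15 and matplotlib 3.10.9 drew the figures.

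The members, lists and alternatives were chosen with earlier results of these data known. All 10 members are given by their values. Fitted differences are printed for members with an unadjusted p below 0.05 (otherwise ranges), and for each further list its called genes or, with none, up to 2 with the smallest p. The named pairs, like genes and extreme values follow from ranks over the members. Alternatives were DESeq2 1.42.0 and its size factors, limma-voom (limma 3.58.1, quality weights), no filter or one at 1 CPM, no batch term, 1 batch alone, all 29 libraries, GC and length offsets, the replicate number as a block and each library left out.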

Additional observations from a re-analysis of the deposited data

Results flagged for a closer look

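In 2 of 60 sets of a junction gene in a group, 1 library stood far from the others of its group by Dixon's test, which chance alone does in about 1 in 20 groups. Gjc1 was 17.9 CPM in NaV1.5_HFD replicate 4, against 13.5 to 14.7 CPM in the other 4 libraries of that group. Dsp was 237 CPM in NaV1.5_RD replicate 4, against 319 to 334 CPM in the other 3. That last library also held the lowest Gjc1, Cdh2, Dsg2, Jup and Ctnna3 values of its group, and its title carries no replicate number. Over all genes it differed from the others of its group by a chi-square of 38.12 to 48.69 per gene. Among those others the value was 6.93 to 12.51, so the departure was not limited to junction genes.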

How the results depend on the processing

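No junction gene difference with an unadjusted p below 0.05 in edgeR changed sign under any alternative run. For NR, where none had one, 6 of the 10 lay below 0, and 4 to 10 did over the alternatives. The count of junction genes called stayed at 0 under every alternative on RD and on HFD between genotypes, for the diet in Ctrl atria and for the interaction. For genotype averaged over diets it was 2 with DESeq2, 3 with limma-voom and 0 to 1 with each library left out. For the diet in NaV1.5 atria it was 1 with DESeq2 and 2 with limma-voom. For the diet averaged over genotypes 1 was called, in a fit that called 800 of 16168 genes. The count was 0 without the low-count filter (630 of 32905 genes called) and 0 with GC and length offsets (230 of 15890). It was also 0 without the batch term (1080 of 16168) and 0 with the replicate block (305 of 16367). It was 2 with all 29 libraries in 1 fit, 3 with DESeq2 and 4 with limma-voom, which called 8.67%, 10% and 24.3% of all genes. With each library left out it ran from 0 to 3, with 2 without Ctrl_RD replicate 4 and 3 without NaV1.5_RD replicate 4 (7.21% and 13.4% of all genes). Without Ctrl_HFD replicate 3 the 1 gene called was Jup, not Ctnna3. For NR it was 7 without the batch term, 10 with NR of batch 2 against vehicle and 10 with the replicate block and no batch term, where 26.7%, 60.4% and 58.8% of all genes were called and batch and NR cannot be told apart. The cause of the other changes was not tested. Of the differences with an unadjusted p below 0.05, 387 recomputed values kept their side of the threshold, 17 passed newly and 17 no longer passed. Those that no longer passed were all of Ctnna3 for the diet averaged over genotypes, the 1 difference that edgeR had called.

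Replicate numbers showed no sign of pairing the samples, though a pairing is not excluded by so few libraries. Over 16 pairs with the same number the correlation of deviations ran from -0.168 to 0.166, with 4 above 0.1. Over 56 pairs with different numbers it ran from -0.212 to 0.312, with 12 above 0.1. With the replicate block Ctnna3 kept a difference of 0.25 at an adjusted p of 0.107 (edgeR). A member that missed the threshold with 3 to 5 libraries of weight in a diet group, or 2 NR libraries, is not shown to be unchanged.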
